A study of Homo sapiens with 8 samples.

Results

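The TGF-β1 response of HSF2-overexpressing HS578T cells was described from 4 of the 8 RNA-seq libraries of the study: the 2 control and the 2 TGF-β1 libraries whose titles name HSF2 overexpression (HSF2oe). HS578T is an established human breast cancer cell line of mesenchymal character. Cells received 25 µg of plasmid, either for GFP (Mock) or for the transcription factor HSF2, and 24 h later were kept for 24 h in assay medium with 2% serum alone or with 10 ng/ml of TGF-β1 added. Each of the 4 groups held 2 libraries, which the design text calls biological replicates. With so few samples, every edgeR p-value rests on a spread pooled over the groups fitted and drawn towards that of other genes. Polyadenylated RNA was turned into sequencing libraries with a stranded mRNA kit. All cells, the controls included, had thus been transfected, and HSF2 came from a plasmid rather than from its own locus. The treatment field of the labels names DMSO for all Mock and TGFb1 for all HSF2oe samples, which goes against the titles. Groups follow the titles here.

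TGF-β1 is a secreted ligand that brings together the type II and type I serine/threonine kinase receptors TGFBR2 and TGFBR1, which phosphorylate SMAD2 and SMAD3. These join SMAD4 and move to the nucleus, where they act on genes with partners such as AP-1, while SMAD7, SKIL and PMEPA1 dampen the signal. In epithelial and mesenchymal cells the pathway is known for inducing extracellular matrix, contractile and epithelial-mesenchymal transition (EMT) genes and for slowing the cell cycle. HSF2 is a heat shock factor, one of a family of transcription factors that bind heat shock elements in chaperone genes.

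The HSF2oe libraries held between 23232467 and 32934381 counts, and the 8 libraries between 17427645 and 34336107. Levels are given in CPM, the count relative to the TMM-scaled library total. Changes are log2 differences ± an approximate standard error (SE) from 1 edgeR quasi-likelihood fit to all 8 libraries. This SE is the size of the change divided by the square root of its F statistic, and it can be too small at low counts. Adjusted p-values cover the 16008 genes tested of 60708 in the table. In the HSF2oe libraries a count of 0 allows up to between 0.0911 and 0.129 CPM (3 counts, counting error only). HSF2 (ENSG00000025156.13, chr6:122399551-122433119 in GRCh38) had 937 and 616 CPM in the HSF2oe controls and 780.3 and 489 CPM with TGF-β1, against 5.4 to 8.36 CPM in the Mock libraries. Every HSF2oe library thus lay far above every Mock library, and these counts include transcripts of the plasmid. HSF2 was not called between the HSF2oe groups (-0.29 ± 0.21, adjusted p = 0.497), whose values overlap. With a replicate block in the edgeR fit to all 8 libraries it was called lower (-0.30, adjusted p = 0.0424). Over all counts of a library, with no TMM scaling, the mesenchymal marker VIM lay between 3982 and 4381 CPM in the HSF2oe libraries and the epithelial marker EPCAM between 0 and 0.143 CPM.

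TGF-β1 changed 1323 genes in HSF2oe cells at an adjusted p under 0.05, which is 8.26% of the genes tested. Of these 712 rose (4.45%) and 611 fell (3.82%), and 1247 were protein-coding. Changes beyond 1 log2 unit were made by 205 of the genes that rose and 165 of those that fell, and the median size among called genes was 0.677. In all 1323 genes both TGF-β1 libraries lay on the same side of both controls. Over all genes tested, both TGF-β1 libraries lay above both controls in 24.1% and below them in 25.7%. The number called rested on each library: it was 673 without control library 1, 798 without control library 2, 983 without TGF-β1 library 1 and 696 without TGF-β1 library 2. Scaling by library totals alone moved the median change of all genes from -0.0092 to -0.17 and gave 452 rises and 1593 falls, so that all changes below are relative to the TMM scale.

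Promoters are shown for members of 3 gene lists: DNA replication genes (LIG1, MCM3, PCNA), mitotic genes (TOP2A, MKI67) and a direct TGF-β target (IL11). They are the 300 bases from 250 before to 50 after the RefSeq start in GRCh38.p14, written 5′ to 3′ along the gene. LIG1 lies at chr19:48170295-48170594, minus strand. MCM3 lies at chr6:52284693-52284992, minus strand. PCNA lies at chr20:5126573-5126872, minus strand. TOP2A lies at chr17:40417847-40418146, minus strand. MKI67 lies at chr10:128126374-128126673, minus strand, and IL11 at chr19:55370414-55370713, minus strand. In the cell cycle genes capitals mark the E2F letters TTTGGCGC or TTTCCCGC, the cell cycle homology region (CHR) TTTGAA and the CCAAT box, and in IL11 the AP-1 letters TGANTCA, the CAGA box CAGACA and the SMAD palindrome GTCTAGAC, each on either strand. A match of letters is a description and not a bound site.
LIG1: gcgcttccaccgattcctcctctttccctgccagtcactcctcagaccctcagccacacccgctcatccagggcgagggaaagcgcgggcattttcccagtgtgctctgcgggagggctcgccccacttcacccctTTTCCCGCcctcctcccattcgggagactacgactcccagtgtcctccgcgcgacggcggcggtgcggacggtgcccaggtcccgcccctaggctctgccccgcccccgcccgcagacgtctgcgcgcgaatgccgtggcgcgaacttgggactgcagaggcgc
MCM3: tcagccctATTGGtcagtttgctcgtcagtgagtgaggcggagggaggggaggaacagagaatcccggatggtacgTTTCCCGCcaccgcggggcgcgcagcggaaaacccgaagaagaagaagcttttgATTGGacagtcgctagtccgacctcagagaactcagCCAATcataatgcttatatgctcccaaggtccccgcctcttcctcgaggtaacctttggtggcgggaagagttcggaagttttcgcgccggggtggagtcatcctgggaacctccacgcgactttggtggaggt
PCNA: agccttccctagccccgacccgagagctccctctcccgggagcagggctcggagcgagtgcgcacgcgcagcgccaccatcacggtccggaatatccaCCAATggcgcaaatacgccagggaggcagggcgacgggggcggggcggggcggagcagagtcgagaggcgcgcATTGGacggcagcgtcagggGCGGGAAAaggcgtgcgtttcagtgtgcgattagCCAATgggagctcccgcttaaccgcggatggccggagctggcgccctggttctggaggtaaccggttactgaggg
TOP2A: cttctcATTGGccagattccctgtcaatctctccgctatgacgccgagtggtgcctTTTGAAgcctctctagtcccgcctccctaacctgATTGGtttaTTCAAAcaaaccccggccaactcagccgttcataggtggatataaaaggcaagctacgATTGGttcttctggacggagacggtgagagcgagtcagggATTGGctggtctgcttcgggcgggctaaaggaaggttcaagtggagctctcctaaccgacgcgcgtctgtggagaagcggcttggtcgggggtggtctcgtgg
MKI67: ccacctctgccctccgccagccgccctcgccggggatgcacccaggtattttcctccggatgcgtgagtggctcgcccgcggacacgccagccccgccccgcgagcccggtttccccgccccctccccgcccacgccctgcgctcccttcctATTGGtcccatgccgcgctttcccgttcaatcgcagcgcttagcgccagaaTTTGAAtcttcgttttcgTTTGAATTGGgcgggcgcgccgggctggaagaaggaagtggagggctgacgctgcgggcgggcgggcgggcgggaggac
IL11: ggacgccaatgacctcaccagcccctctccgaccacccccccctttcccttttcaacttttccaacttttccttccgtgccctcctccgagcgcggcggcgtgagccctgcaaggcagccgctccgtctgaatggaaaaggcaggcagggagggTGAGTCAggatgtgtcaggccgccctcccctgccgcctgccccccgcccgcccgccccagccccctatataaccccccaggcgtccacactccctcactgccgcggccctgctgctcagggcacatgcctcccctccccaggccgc

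LIG1, MCM3 and PCNA each hold 1 E2F match, and TOP2A and MKI67 hold 2 CHR matches each. In MKI67 1 CHR match overlaps a CCAAT box, and no other marked letters overlap in these windows. Of the 36 replication genes, 30 had a promoter in the table, and 15 of those (50%) held the E2F letters, against 2.31% of all 27305 promoters and 3.65% of the 11105 promoters of tested genes. The CHR letters stood in 23 of 37 promoters of mitotic genes (62.2%), against 15.4% of all promoters and 9.67% of those of tested genes. Of called genes of these lists that are not shown, CLSPN holds 1 E2F match and NUF2 1 CHR match. The windows of POLD1 and CENPI hold no E2F, CHR or CCAAT letters, and that of SPC24 holds CCAAT boxes but no E2F or CHR letters. Among 24 promoters of direct TGF-β targets, AP-1 letters stood in 2 (8.33%), against 7.76% of all promoters and 4.89% of those of tested genes, and the IL11 promoter was one of them. The CAGA box stood in 2 of the 24 (8.33%), against 16.8% of all promoters and 12.4% of those of tested genes. The SMAD palindrome stood in 0 of the 24, against 0.201% of all promoters. The windows of the direct targets ADAM19, CCN2, RHOB and TGFBI hold none of these letters. Interferon-stimulated response element letters (ISRE) stood in 21 of 32 promoters of interferon-stimulated genes (65.6%), against 3.65% of all promoters and 2.8% of those of tested genes. Over all genes called, the ISRE share was 6.58% for those that fell and 2.06% for those that rose.

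Among the ligands of the family, 8 of 20 tested genes rose and 3 fell, with a median change of 0.41. BMP6, a bone morphogenetic protein (ENSG00000153162.9, chr6:7726099-7881728), had 0.899 and 0.713 CPM in the controls and 11.9 and 14.2 CPM with TGF-β1, a change of 4.0 ± 0.20 (adjusted p = 1.49e-07). No called gene above a mean of 1 log2 CPM had a larger rise. INHBA, which encodes the activin A subunit, had 340.4 and 341 CPM in the controls and 1052 and 1011 CPM with TGF-β1 (1.60 ± 0.11, adjusted p = 2.55e-06). TGFB1 itself, the gene of the added ligand, went from 278 and 309 CPM to 568 and 640.0 CPM (1.04 ± 0.12, adjusted p = 8.54e-05), with no overlap in either gene. The BMP-type ligand GDF6 rose by 1.45 ± 0.12 and LTBP2, a latent TGF-β binding protein of the matrix, by 1.62 ± 0.13. INHBB, BMP4 and the latent TGF-β activating integrin subunit ITGB8 fell, but each lost its call when a single library was left out. Without control library 1, control library 2, TGF-β1 library 1 or TGF-β1 library 2, the list held 6, 6, 7 and 7 rises and 2, 1, 2 and 0 falls.

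Of 11 receptors tested, 1 rose (BMPR2), 2 fell and 8 were not called. TGFBR2, the type II receptor that binds the ligand (ENSG00000163513.19, chr3:30606601-30694142), had 233 and 240.0 CPM in the controls and 153 and 135 CPM with TGF-β1 (-0.72 ± 0.12, adjusted p = 0.00201). The co-receptor TGFBR3, betaglycan, went from 19.4 and 15.8 CPM to 9.53 and 6.39 CPM (-1.13 ± 0.18, adjusted p = 0.00143). In both genes each TGF-β1 library was below each control. TGFBR1, the type I receptor, had 28.9 and 36.9 CPM in the controls and 28.8 and 36.5 CPM with TGF-β1, so that its groups overlap (-0.01 ± 0.18, adjusted p = 0.98). Without any 1 of the 4 HSF2oe libraries BMPR2 was no longer called, and the 2 falls held.

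Of the 6 receptor and common SMADs, SMAD3 and SMAD9 fell and none rose. SMAD3, the main transcriptional effector of TGF-β (ENSG00000166949.17, chr15:67063763-67195173), had 139.6 and 135 CPM in the controls and 76.3 and 78.5 CPM with TGF-β1 (-0.83 ± 0.09, adjusted p = 0.000109). SMAD2 (0.05 ± 0.09, adjusted p = 0.821) and SMAD4 (0.12 ± 0.10, adjusted p = 0.601) were not called. SMAD9 lost its call without any 1 of the HSF2oe libraries. Among 14 intracellular feedback regulators 3 rose and none fell. PMEPA1, a membrane protein that holds receptor SMADs away from the receptor, went from 64.5 and 73.0 CPM to 229 and 259 CPM (1.83 ± 0.14, adjusted p = 3.98e-06). SKIL, a corepressor of SMADs, went from 34.3 and 33.9 CPM to 59.1 and 60.7 CPM (0.81 ± 0.09, adjusted p = 8.54e-05). The inhibitory SMAD7 had 60.3 and 43.8 CPM in the controls and 79.0 and 65.7 CPM with TGF-β1 (0.48 ± 0.14, adjusted p = 0.0478). Its call was lost in 11 alternatives, among them library totals (adjusted p = 0.14), a stricter filter on low counts (0.055) and the edgeR fit to the 4 HSF2oe libraries (0.109). Without control library 2 its change was 0.26. FSTL3, a secreted antagonist of activin, rose by 1.20 ± 0.09, from 87.3 and 80.1 CPM to 195 and 189.9 CPM.

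The early and direct TGF-β and SMAD targets were the list with the largest share of called genes: 22 of 31 rose and 1 (TSC22D1) fell. Their median change was 1.14, against -0.0092 over all genes tested. In 27 of 31 both TGF-β1 libraries were above both controls, against 24.1% of all genes tested. IL11, a cytokine of the interleukin 6 family (ENSG00000095752.7, chr19:55364382-55370463), had 47.2 and 44.2 CPM in the controls and 276 and 281 CPM with TGF-β1 (2.60 ± 0.10, adjusted p = 2.78e-08). CCN2, the matricellular connective tissue growth factor (ENSG00000118523.6, chr6:131948176-131951372), went from 843 and 1163 CPM to 5987 and 5758 CPM (2.55 ± 0.15, adjusted p = 7.64e-07). In both genes the TGF-β1 libraries were close to each other and several times above the controls. ADAM19, a membrane protease, went from 101 and 101 CPM to 555 and 544 CPM (2.44 ± 0.12, adjusted p = 1.49e-07). TGFBI, a matrix protein named after its induction by TGF-β, rose by 1.94 ± 0.14 and the small GTPase RHOB by 1.91 ± 0.13. The stress sensor GADD45B (1.21 ± 0.10) and the AP-1 subunit JUNB (1.05 ± 0.09) rose as well. Leaving out each HSF2oe library in turn gave 18 to 20 rises and 0 or 1 falls in the list.

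**Figure D1:**
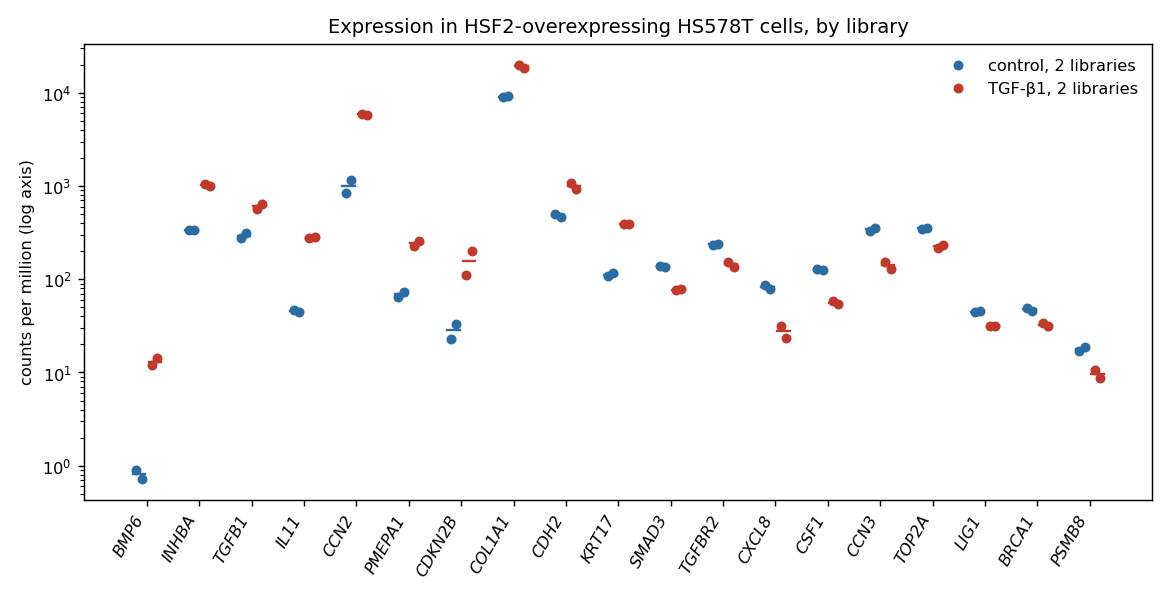
CPM on a log axis of 19 named genes in the 4 HSF2oe libraries. Each point is 1 library and each short line the arithmetic mean of the 2 libraries of a group, with controls in blue and TGF-β1 in red. The groups do not overlap in any of these genes: the 10 genes from BMP6 to KRT17 are higher and the 9 from SMAD3 to PSMB8 lower with TGF-β1.

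The 15 largest rises above a mean of 1 log2 CPM included several that belong to no list. Others, among them CDKN2B, TCF4 and PTGS2, are members of lists and are counted there. FOXS1, a forkhead transcription factor that is also among the direct targets, went from 0.514 and 0.899 CPM to 5.54 and 10.9 CPM (3.51 ± 0.38, adjusted p = 7.17e-05). ST6GAL2, a sialyltransferase, went from 2.41 and 1.77 CPM to 18.1 and 21.9 CPM (3.25 ± 0.23, adjusted p = 2.55e-06). EDN1, the vasoconstrictor peptide endothelin 1, went from 57.7 and 82.7 CPM to 408 and 380.1 CPM (2.49 ± 0.14, adjusted p = 5.36e-07). In all of them the lower TGF-β1 library was several times the higher control. CDKN2B, the cell cycle inhibitor p15 (ENSG00000147883.12, chr9:22002903-22009305), went from 23.1 and 33.5 CPM to 111 and 203 CPM (2.47 ± 0.25, adjusted p = 3.58e-05). Its TGF-β1 libraries differed from each other more than its controls did. The tight junction gene CLDN14 (2.58 ± 0.26), LRRC15, a membrane protein of matrix-producing fibroblasts (2.47 ± 0.17), and the Wnt regulator DACT1 (2.21 ± 0.21) also rose. So did the transcription factor TCF4 (2.14 ± 0.19), the prostaglandin synthase PTGS2 (2.09 ± 0.26), the lysosomal transporter SLC46A3 (2.06 ± 0.14) and C5orf46 (2.53 ± 0.33).

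The 15 largest falls were led by IGFN1. This gene, which encodes a protein with immunoglobulin-like and fibronectin type III domains, went from 16.4 and 10.9 CPM to 2.24 and 1.75 CPM (-2.76 ± 0.23, adjusted p = 8.67e-06). SECTM1, a secreted and transmembrane immune protein, went from 19.5 and 17.5 CPM to 4.3 and 2.26 CPM (-2.46 ± 0.25, adjusted p = 4.62e-05). SPTLC3, a subunit of serine palmitoyltransferase, the enzyme that starts sphingolipid synthesis, went from 22.8 and 19.0 CPM to 5.76 and 2.73 CPM (-2.26 ± 0.23, adjusted p = 4.32e-05). SPTLC2, another subunit gene of that enzyme, moved the other way, from 48.2 and 47.5 CPM to 75.1 and 66.2 CPM (0.56 ± 0.10, adjusted p = 0.00271). The membrane-skeleton protein ANK1 (-2.22 ± 0.20), the secretory GTPase RAB27B (-2.04 ± 0.18), the scavenger receptor COLEC12 (-2.01 ± 0.15) and TMEM132B (-2.29 ± 0.23) fell. So did the growth factor binding protein IGFBP1 (-2.14 ± 0.37), the long noncoding RNA LINC01085 (-2.09 ± 0.31), the apolipoprotein L gene APOL3 (-1.99 ± 0.21), TBC1D8 (-1.72 ± 0.14) and PLEKHA6 (-1.72 ± 0.23). SLC43A3 (-2.12 ± 0.27) and EVI2B (-2.00 ± 0.25) fell too, but share 29.9% and 30.0% of their exonic bases with other genes in the annotation, where reads cannot be assigned with certainty. PLCH2 (-1.81 ± 0.34, adjusted p = 0.0047) lost its call without control library 1 (adjusted p = 0.0746).

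Of 23 collagen chains 9 rose and 2 fell, with a median change of 0.34, and of 24 matricellular and elastic fibre genes 11 rose and 1 fell, with a median of 0.56. COL1A1, the α1 chain of type I collagen (ENSG00000108821.14, chr17:50184101-50201632), had 9042 and 9152 CPM in the controls and 20001 and 18562 CPM with TGF-β1 (1.08 ± 0.12, adjusted p = 0.000112). COL4A1, of the basement membrane, went from 992 and 1035 CPM to 3008 and 3036 CPM (1.58 ± 0.13, adjusted p = 1.01e-05). COL4A2 (0.88 ± 0.12) and COL5A1 (1.05 ± 0.13) rose, whereas the transmembrane collagens COL13A1 (-1.22 ± 0.17) and COL17A1 (-1.44 ± 0.27) fell. FN1, fibronectin, had 26968 and 25204 CPM in the controls and 40553 and 37059 CPM with TGF-β1 (0.57 ± 0.14, adjusted p = 0.0195). Its call was lost in limma-trend on the authors' log2 CPM (adjusted p = 0.276) and in the edgeR fit to the 4 HSF2oe libraries alone (adjusted p = 0.0615). It was also lost without control library 1 (change 0.63), control library 2 (0.52) or TGF-β1 library 1 (0.52). The matrix protein POSTN (0.75 ± 0.14) and the fibroblast protease FAP (0.88 ± 0.13) rose. CCN3, of the same family as CCN2, went from 332 and 352 CPM to 154 and 129.9 CPM (-1.27 ± 0.11, adjusted p = 1.02e-05), so that CCN2 and CCN3 moved in opposite directions. Without control library 1, control library 2, TGF-β1 library 1 or TGF-β1 library 2, 6, 5, 6 and 6 collagens rose and 2 fell each time, and 7, 8, 9 and 10 matricellular genes rose.

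Among enzymes that fold and crosslink collagen 6 of 25 rose and none fell. LOX, lysyl oxidase, rose by 0.66 ± 0.11 and the prolyl hydroxylase P4HA2 by 0.80 ± 0.11. The number of rises in this list was 3 without control library 1. Of 26 proteoglycan and hyaluronan genes 6 rose and none fell, with the xylosyltransferase XYLT1, which starts glycosaminoglycan chains, at 1.65 ± 0.13, versican (VCAN) at 0.91 ± 0.15 and syndecan 1 (SDC1) at 0.65 ± 0.10. The median of the proteoglycan list was 0.12, and -0.04 under library totals. Of 27 integrins and laminins 5 rose and 2 fell: the fibronectin receptor subunit ITGA5 rose by 0.81 ± 0.11 and the laminin chain LAMA5 fell by 1.01 on the log2 scale (SE 0.14). The falls in that list numbered 4 without TGF-β1 library 1 and 1 without TGF-β1 library 2. Among proteases, MMP2, gelatinase A, went from 533 and 603 CPM to 1068 and 1151 CPM (0.96 ± 0.13, adjusted p = 0.000529). MMP13, collagenase 3, had only 5 and 2 counts in the controls and 120 and 108 counts with TGF-β1 (adjusted p = 1.48e-05). ADAMTS15, a protease of proteoglycans, went from 27.8 and 22.3 CPM to 9.4 and 6.14 CPM (-1.67 ± 0.19, adjusted p = 9.04e-05).

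Of 18 EMT transcription factors 4 rose and 2 fell. SNAI1, a repressor of E-cadherin, had 0.417 and 0.403 CPM in the controls and 2.58 and 2.09 CPM with TGF-β1 (2.50 ± 0.36, adjusted p = 0.000617). SOX4 went from 35.0 and 44.2 CPM to 109.8 and 130.4 CPM (1.60 ± 0.16, adjusted p = 4.24e-05). SNAI2 rose (0.56 ± 0.12, adjusted p = 0.0114), and TWIST1 (-0.55 ± 0.12, adjusted p = 0.0125) and ZEB2 (-0.42 ± 0.10, adjusted p = 0.0168) fell. All 3 lost the call without TGF-β1 library 2, as SNAI2 and ZEB2 did without control library 1 and TWIST1 without control library 2. ZEB1 had 69.1 and 61.9 CPM in the controls and 74.7 and 72.3 CPM with TGF-β1 (0.17 ± 0.11, adjusted p = 0.431). The list thus holds members on both sides, with a median of 0.16 that was -0.00095 under library totals.

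Cell adhesion genes were among those that rose. N-cadherin, CDH2 (ENSG00000170558.10, chr18:27932879-28177946), had 499 and 463 CPM in the controls and 1086 and 933 CPM with TGF-β1 (1.07 ± 0.11, adjusted p = 3.71e-05). E-cadherin, CDH1, was near the lower limit, at 11 and 9 counts in the controls and 17 and 6 counts with TGF-β1, and its groups overlap. CDH6 rose by 1.13 ± 0.11, and the protocadherin PCDH7 went from 83.5 and 88.9 CPM to 49.0 and 43.2 CPM (-0.90 ± 0.10, adjusted p = 7.17e-05). In all 8 of 26 cadherin and catenin genes rose and 3 fell, which became 4, 2, 4 and 5 rises without control library 1, control library 2, TGF-β1 library 1 or TGF-β1 library 2. Keratins and desmosomal genes, which mark epithelia, held 7 rises and 1 fall among 16. KRT17 went from 108 and 116 CPM to 387 and 395 CPM (1.80 ± 0.10, adjusted p = 5.36e-07), KRT14 rose by 0.94 ± 0.14 and desmoplakin (DSP) by 1.84 ± 0.16. The number of rises in this list was 3 without control library 1 or TGF-β1 library 2, 4 without control library 2 and 6 without TGF-β1 library 1. Vimentin, VIM, the intermediate filament of mesenchymal cells, was not called (0.15 ± 0.11, adjusted p = 0.521).

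Actin and contractile genes rose together: 20 of 33 were called higher and none lower. In 29 of 33 both TGF-β1 libraries were above both controls, against 24.1% of all genes tested. The median change of the list was 0.46, and 0.30 under library totals. ACTA2, smooth muscle actin, had 72.5 and 124 CPM in the controls and 246 and 400.0 CPM with TGF-β1 (1.71 ± 0.24, adjusted p = 0.000607), and it shares 30.8% of its exonic bases with other genes. The calponin CNN2 went from 212 and 247 CPM to 363 and 435 CPM (0.80 ± 0.11, adjusted p = 0.000622) and the actin crosslinker LIMA1 from 194 and 188 CPM to 308 and 296 CPM (0.66 ± 0.10, adjusted p = 0.000801). The kindlin FERMT2 (0.89 ± 0.09) and the actin polymerisation factor VASP (0.59 ± 0.09), both of focal adhesions, rose as well. Targets of YAP and TEAD, the transcription factors that respond to tension and cell density, held 10 rises and no fall among 22, with ANKRD1 at 2.00 ± 0.17 and the GTPase-activating protein gene DLC1 at 0.64 ± 0.09. CCN2 and GADD45B stand in this list and among the direct TGF-β targets. The actin list held 11, 18, 21 and 11 rises, and the YAP list 6, 8, 7 and 8, without control library 1, control library 2, TGF-β1 library 1 or TGF-β1 library 2.

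**Figure D2:**
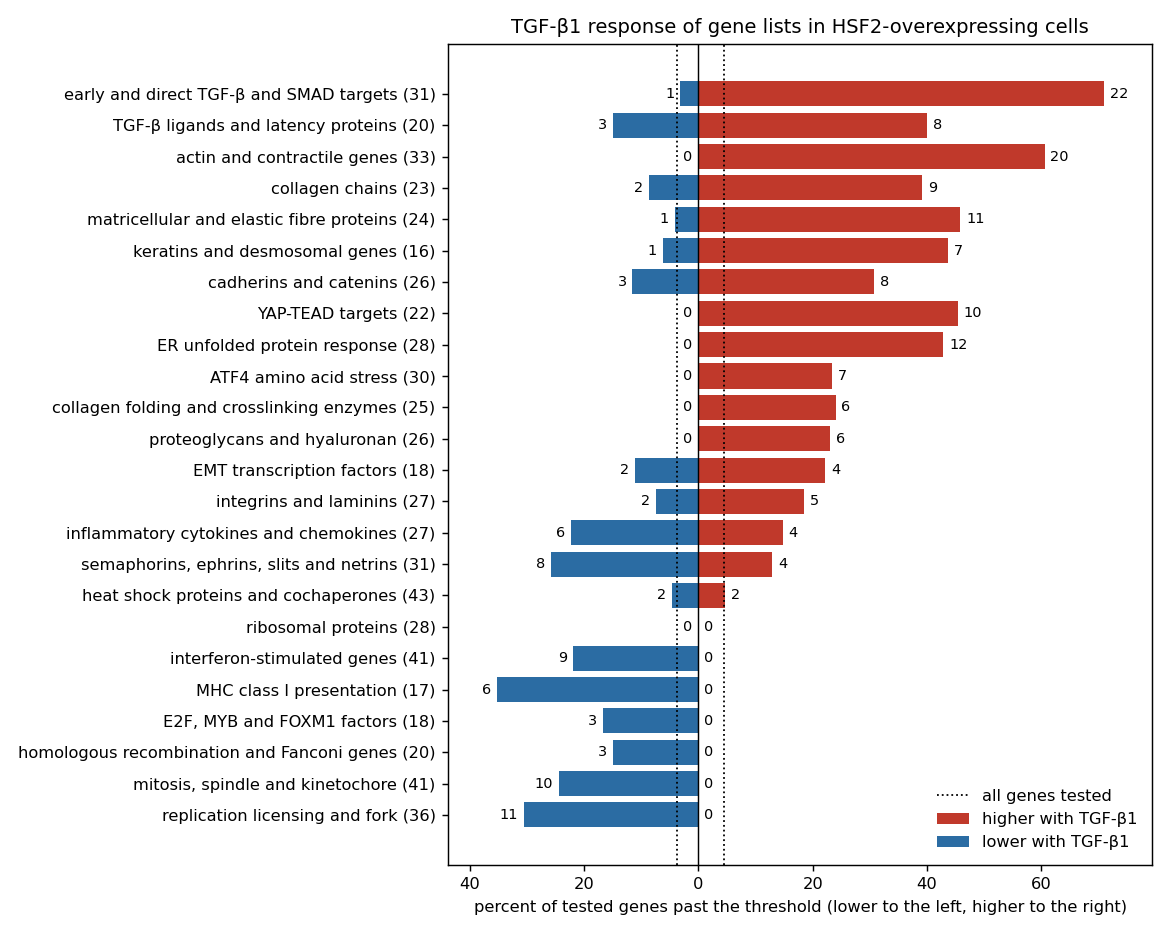
Percent of the tested genes of 24 gene lists that rose (red, to the right) or fell (blue, to the left) with TGF-β1 in HSF2oe cells, with the number tested in brackets and the number called beside each bar. Dotted lines mark the 4.45% of all tested genes that rose and the 3.82% that fell. Direct targets (22 of 31) and actin genes (20 of 33) have the longest bars to the right, and replication genes (11 of 36) and MHC class I genes (6 of 17) are among the longest to the left.

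Of 36 genes of replication licensing and the fork, 11 fell and none rose, with a median change of -0.34. In 34 both TGF-β1 libraries were below both controls, against 25.7% of all genes tested. LIG1, the ligase that joins Okazaki fragments (ENSG00000105486.14, chr19:48115445-48170603), had 44.5 and 45.1 CPM in the controls and 31.4 and 31.8 CPM with TGF-β1 (-0.50 ± 0.10, adjusted p = 0.00504). MCM3, a subunit of the replicative helicase, went from 152 and 151 CPM to 113 and 108 CPM (-0.45 ± 0.09, adjusted p = 0.00864). PCNA, the sliding clamp of the polymerases, went from 109 and 119 CPM to 86.4 and 81.9 CPM (-0.44 ± 0.10, adjusted p = 0.0136). These 3 genes hold E2F letters in their promoters, whereas POLD1, which was also called lower, holds none. A link between such letters and the falls was not tested. In LIG1, MCM3 and PCNA both TGF-β1 libraries lay below both controls. LIG1 kept its call when any 1 library was left out, MCM3 lost it without control library 1 (adjusted p = 0.0642) or TGF-β1 library 2 (0.084), and PCNA without control library 2 (0.119) or TGF-β1 library 2 (0.116). The list held 2, 2, 4 and 1 falls without control library 1, control library 2, TGF-β1 library 1 or TGF-β1 library 2, and 25 under library totals. Its median was negative under both scalings.

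Mitotic genes showed a like picture, with 10 of 41 called lower and none higher. In 38 both TGF-β1 libraries were below both controls, against 25.7% of all genes tested. The median change of the mitotic list was -0.29. TOP2A, topoisomerase IIα (ENSG00000131747.15, chr17:40388525-40417896), had 348 and 354 CPM in the controls and 217 and 235 CPM with TGF-β1 (-0.64 ± 0.10, adjusted p = 0.00149). The proliferation marker MKI67 went from 580.2 and 582 CPM to 308 and 410.2 CPM (-0.70 ± 0.15, adjusted p = 0.00972). NUF2, of the kinetochore, went from 53.9 and 55.7 CPM to 39.1 and 36.6 CPM (-0.53 ± 0.10, adjusted p = 0.0042). TOP2A kept its call without any 1 library, whereas MKI67 lost it without control library 1 (adjusted p = 0.0523) or TGF-β1 library 1 (0.093), and NUF2 without TGF-β1 library 2 (0.054). The list held 2, 4, 4 and 3 falls without control library 1, control library 2, TGF-β1 library 1 or TGF-β1 library 2, and 32 under library totals.

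Among 20 genes of homologous recombination and Fanconi repair 3 fell and none rose, and BRCA1 went from 49.3 and 45.8 CPM to 33.9 and 31.4 CPM (-0.54 ± 0.10, adjusted p = 0.00322). Of 18 E2F, MYB and FOXM1 factors and partners 3 fell: E2F2 (-1.02 ± 0.25), MYBL1 (-0.71 ± 0.11) and the pocket protein RBL1 (-0.58 ± 0.10). E2F2 lost its call without control library 1 (adjusted p = 0.161) or TGF-β1 library 2 (0.148), and in limma-trend (0.0545). E2F1 had 58.4 and 52.8 CPM in the controls and 50.5 and 39.8 CPM with TGF-β1 and was not called (-0.30 ± 0.17, adjusted p = 0.377). Of 10 genes of nucleotide synthesis TYMS alone fell (-0.46 ± 0.13), and not when any 1 HSF2oe library was left out. The recombination list held 1, 2, 2 and 1 falls in the same 4 settings. Among cell cycle inhibitors CDKN2B rose while CDKN2C, p18, went from 128 and 126 CPM to 79.4 and 72.5 CPM (-0.74 ± 0.11, adjusted p = 0.000722). The p21 gene CDKN1A had 52.9 and 48.2 CPM in the controls and 64.9 and 56.2 CPM with TGF-β1 (0.26 ± 0.12, adjusted p = 0.222). The G1 cyclin CCND1 (0.32 ± 0.10, adjusted p = 0.0733) and the growth regulator MYC (0.38 ± 0.12, adjusted p = 0.0798) were not called in the edgeR fit. Both were called by DESeq2 (adjusted p = 0.0217 and 0.0411) and by edgeR without a filter on low counts (0.0355 and 0.0129).

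Fewer genes were called in HSF2oe cells than in Mock cells. In Mock cells 2212 genes were called (13.8%), 1172 of them higher (7.32%) and 1040 lower (6.5%). The Mock and HSF2oe responses shared 1010 calls, which are 76.3% of those in HSF2oe cells and 45.7% of those in Mock cells, and all 1010 had the same direction. Of the 1323 genes called in HSF2oe cells, 1314 had the same sign in Mock cells and 9 the opposite sign. The controls of the 2 comparisons are different libraries. The test of the difference itself, HSF2oe effect minus Mock effect, called 0 genes with edgeR (0%), 83 with edgeR without a filter on low counts, 24 with DESeq2 and 0 with limma-trend on the authors' log2 CPM. At an unadjusted p under 0.05 it gave 977 genes (6.1%), 473 with the HSF2oe effect above the Mock effect (2.95%) and 504 below it (3.15%). BMP6 had the smallest adjusted p of the difference (0.0873): its change was 4.0 ± 0.20 in HSF2oe and 7.02 ± 0.26 in Mock cells, whose controls held 0.15 and 0.142 CPM, from 4 and 5 counts. At such counts the approximate SE understates the uncertainty of the Mock change.

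Many genes of the cell cycle lists changed less than in Mock cells, although no single difference passed adjustment. A smaller change than in Mock cells was not particular to these lists, and 9187 of all 16008 genes tested had it. So did 21 of 25 collagen folding and crosslinking enzymes, 17 of 23 collagen chains and 23 of 30 ATF4 targets, against 2 of 28 ribosomal protein genes. Of the 36 replication genes 34 fell in Mock cells, with a median of -0.86, against 11 and -0.34 in HSF2oe cells. The HSF2oe effect was above the Mock effect in 35 of 36, with an unadjusted p under 0.05 in 30, none of which passed adjustment over all genes (smallest adjusted p = 0.165, GINS2). Over all genes tested it was above in 8008 of 16008, and 6.1% had an unadjusted p under 0.05 in either direction. Other lists were uneven too, with 27 of 28 ribosomal protein genes and 3 of 25 collagen folding and crosslinking enzymes above the Mock effect. GINS2, of the helicase complex, had 38.3 and 38.5 CPM in the HSF2oe controls and 32.2 and 30.7 CPM with TGF-β1 (-0.29 ± 0.13), and its change in Mock cells was -1.49 ± 0.14. Of the 41 mitotic genes 39 fell in Mock cells, with a median of -0.68 against -0.29, and the effect was above that of Mock cells in 41 of 41, with an unadjusted p under 0.05 in 20. Recombination genes had 9 of 20 and nucleotide synthesis genes 4 of 10 at that level, in the same direction. CCNE2, cyclin E2, changed by -0.50 ± 0.20 in HSF2oe and -2.13 ± 0.27 in Mock cells (difference 1.63 ± 0.34, adjusted p = 0.268), and 37.1% of its exonic bases are shared with other genes. These genes vary together within a library, so that a count over them is not a count of independent events.

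**Figure D3:**
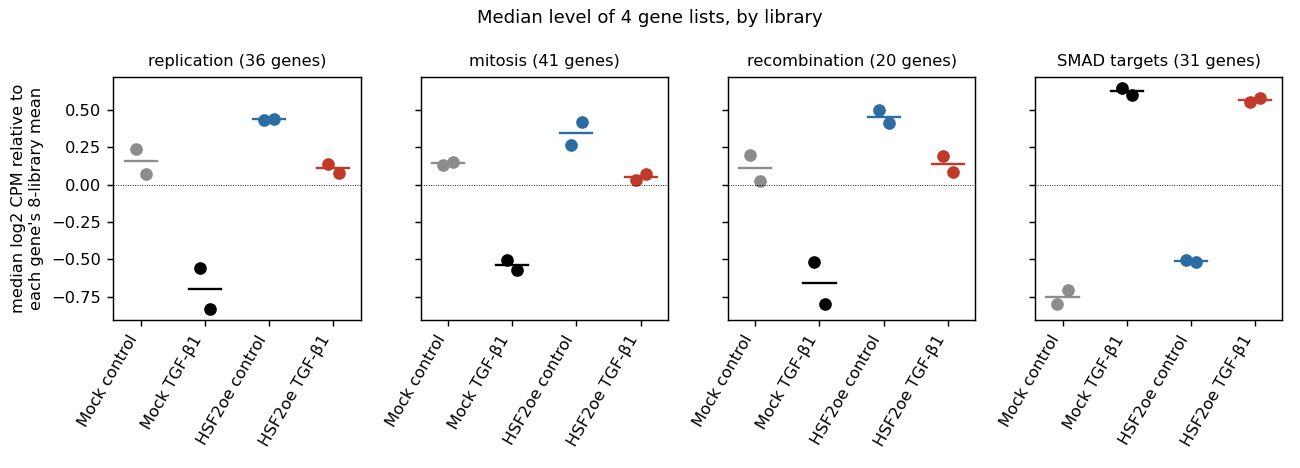
Median over the genes of 4 lists of log2 CPM relative to each gene's mean over all 8 libraries, with 1 point per library and a line at the mean of each pair. For replication genes the HSF2oe TGF-β1 libraries lie at 0.14 and 0.08 and the Mock TGF-β1 libraries at -0.56 and -0.83. For direct TGF-β and SMAD targets Mock and HSF2oe cells reach similar values with TGF-β1, from 0.55 to 0.64.

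The per-library medians place these differences. For replication genes the HSF2oe controls were at 0.43 and 0.44 and the HSF2oe TGF-β1 libraries at 0.14 and 0.08, relative to the mean of all 8 libraries. The Mock controls were at 0.24 and 0.07 and the Mock TGF-β1 libraries at -0.56 and -0.83. The range of the TGF-β1-treated HSF2oe libraries thus lay within that of the untreated Mock libraries. For mitotic genes the HSF2oe libraries went from 0.27 and 0.41 to 0.03 and 0.07, and the Mock libraries from 0.13 and 0.15 to -0.50 and -0.57. The direct TGF-β targets had 22 rises in HSF2oe and 24 in Mock cells, with medians of 1.14 and 1.44, and 8 of 31 had an unadjusted p under 0.05 for the difference, 3 above and 5 below. Among the matrix lists the smallest p of the difference was that of the crosslinking enzyme TGM2, which changed by 0.70 ± 0.13 in HSF2oe and 1.54 ± 0.13 in Mock cells (difference -0.84 ± 0.19, adjusted p = 0.318). CCN3 fell by 1.27 on the log2 scale in HSF2oe and by 1.96 in Mock cells (difference 0.69 ± 0.15, adjusted p = 0.326).

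**Figure D4:**
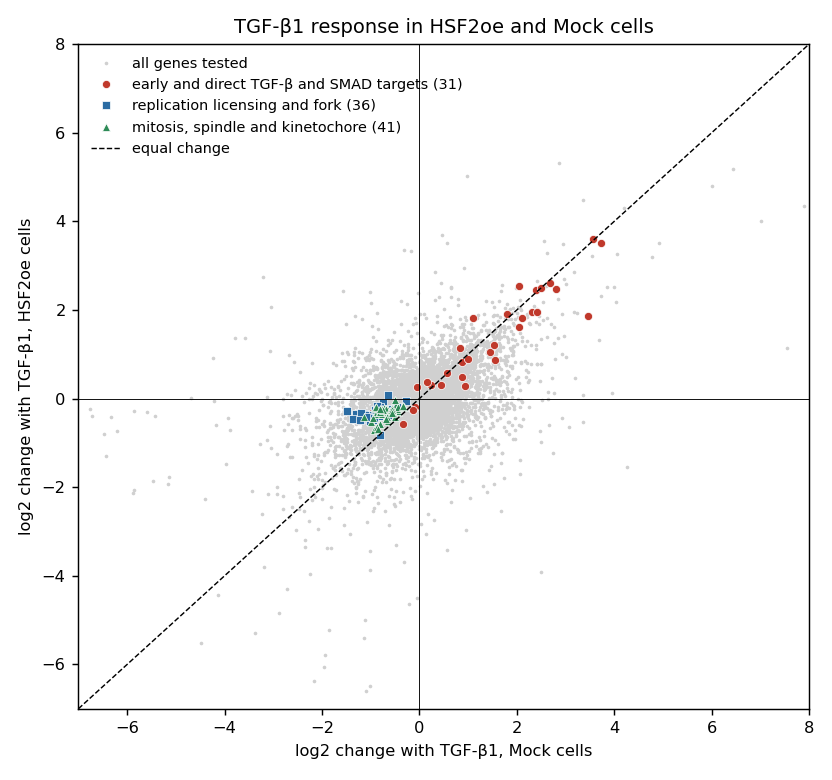
log2 change with TGF-β1 in Mock cells (x axis) and HSF2oe cells (y axis) for the 16008 genes tested, in grey, with 3 lists in colour and the line of equal change. Direct targets had median changes of 1.44 and 1.14, and the HSF2oe change was above the Mock change in 35 of 36 replication genes (medians -0.86 in Mock and -0.34 in HSF2oe cells) and in 41 of 41 mitotic genes (-0.68 and -0.29). Over all genes tested the HSF2oe change was above the Mock change in 8008 of 16008.

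Of 43 heat shock proteins and cochaperones, a class with known targets of heat shock factors, 2 rose and 2 fell, which is 9.3% against 8.26% of all genes tested, with a median of 0.05, and -0.11 under library totals. Without control library 1, control library 2, TGF-β1 library 1 or TGF-β1 library 2, 1, 0, 1 and 1 rose and 2, 1, 1 and 1 fell. HSPA1A, the inducible HSP70, had 109 and 122 CPM in the controls and 107 and 112 CPM with TGF-β1 (-0.08 ± 0.10, adjusted p = 0.764). HSP90AA1, an HSP90, went from 1498 and 1619 CPM to 1119 and 1155 CPM (-0.46 ± 0.10, adjusted p = 0.0135), a call that was lost without control library 2 (adjusted p = 0.101), TGF-β1 library 1 (0.0785) or TGF-β1 library 2 (0.0554). HSPA4L, an HSP110-type chaperone, fell by 0.75 on the log2 scale (SE 0.13, adjusted p = 0.00265). HSF1, the main heat shock factor, was at 184 CPM in both controls and at 186 and 198 CPM with TGF-β1 (0.06 ± 0.09, adjusted p = 0.782).

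Genes of the unfolded protein response of the endoplasmic reticulum rose more widely: 12 of 28 rose and none fell. In 26 of 28 both TGF-β1 libraries were above both controls, against 24.1% of all genes tested. The median change of the list was 0.36, and 0.20 with 4 rises under library totals. DNAJB9, a cochaperone of the endoplasmic reticulum, went from 10.8 and 13.5 CPM to 24.5 and 27.4 CPM (1.09 ± 0.17, adjusted p = 0.00134). HERPUD1, of the degradation machinery there, went from 56.9 and 74.9 CPM to 108 and 142 CPM (0.92 ± 0.17, adjusted p = 0.00359). HSPA5, the chaperone BiP, went from 1638 and 1360.0 CPM to 2762 and 2158 CPM (0.71 ± 0.14, adjusted p = 0.00473), which was lost without control library 2 (adjusted p = 0.0554). Among targets of the amino acid stress factor ATF4, 7 of 30 rose and none fell, with the amino acid transporter SLC1A4 at 0.63 ± 0.11. The endoplasmic reticulum list held 5, 5, 8 and 5 rises, and the ATF4 list 1, 6, 11 and 2, without control library 1, control library 2, TGF-β1 library 1 or TGF-β1 library 2. Ribosomal protein genes held no call among 28 and had a median of 0.14, and -0.02 under library totals. Yet in 26 of these 28 as well both TGF-β1 libraries were above both controls.

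Immune genes fell in part. Of 41 interferon-stimulated genes 9 fell and none rose, with a median of -0.44, and of 17 genes of MHC class I presentation 6 fell and none rose, with a median of -0.22. PSMB8, a subunit of the immunoproteasome (ENSG00000204264.12, chr6:32840717-32844679), went from 17.1 and 18.7 CPM to 10.7 and 8.78 CPM (-0.87 ± 0.13, adjusted p = 0.000816), and its neighbour PSMB9 from 8.61 and 7.94 CPM to 4.3 and 2.43 CPM (-1.27 ± 0.22, adjusted p = 0.0031). PARP14, an ADP-ribosyltransferase, went from 26.8 and 23.4 CPM to 14.7 and 10.1 CPM (-1.01 ± 0.17, adjusted p = 0.00178). The ubiquitin ligase DTX3L fell by 0.69 on the log2 scale (SE 0.10). The transcription factor IRF1 fell by 0.65 (SE 0.10) and shares 22.9% of its exonic bases with other genes. Both lists moved with single libraries: without control library 1, control library 2, TGF-β1 library 1 or TGF-β1 library 2, 4, 6, 11 and 3 interferon-stimulated genes and 3, 4, 4 and 2 MHC class I genes fell. In Mock cells 9 interferon-stimulated genes fell and 2 rose.

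Inflammatory genes were split, with 4 rises and 6 falls among 27. CXCL8, the neutrophil chemokine interleukin 8 (ENSG00000169429.11, chr4:73740541-73743716), went from 87.2 and 79.3 CPM to 31.8 and 23.3 CPM (-1.59 ± 0.14, adjusted p = 1.01e-05). CSF1, the macrophage growth factor, went from 128 and 125 CPM to 57.8 and 54.5 CPM (-1.17 ± 0.10, adjusted p = 8.67e-06). The cytokine IL6 moved the other way, from 45.8 and 59.6 CPM to 97.3 and 98.6 CPM (0.89 ± 0.13, adjusted p = 0.00058), and it shares 20.7% of its exonic bases with other genes. The hyaluronan-binding TNFAIP6 rose by 1.66 ± 0.19. Without control library 1, control library 2, TGF-β1 library 1 or TGF-β1 library 2, the falls in this list numbered 2, 3, 4 and 2. Of the blood and endothelial markers, which the line should lack, 2 of 6 tested were lower: PTPRC held 11 and 15 counts in the controls and 0 and 0 with TGF-β1, and PECAM1 132 and 91 counts against 44 and 34. PTPRC lost its call without any 1 of the 4 HSF2oe libraries (adjusted p = 0.0645 to 0.119), and PECAM1 without control library 1 (0.143), TGF-β1 library 1 (0.0737) or TGF-β1 library 2 (0.0554). The summed level of the list went from 12.1 and 10.6 CPM to 8.31 and 6.65 CPM. CD3E and the globins HBB and HBA1 were at 0 in all 4 libraries, whereas ERG, CD68, CD14 and KDR were detected in each. ERG held 116 and 108 counts in the controls and 102 and 47 with TGF-β1. CD68 held 53 and 54 against 51 and 20, and CD14 35 and 52 against 19 and 19. KDR went the other way, with 31 and 21 counts against 51 and 36. The part of such cells in the immune changes was not tested. Of 7 tested luminal and epithelial markers XBP1 alone rose (0.49 ± 0.12), which is also a gene of the unfolded protein response. Its call was lost under library totals (adjusted p = 0.0903) and without control library 1 (0.238) or TGF-β1 library 2 (0.178).

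Genes of other signals moved in both directions. Of 35 growth factor ligands and receptors 6 rose and 3 fell, with 5 falls without TGF-β1 library 1. The co-receptor NRP2 went from 40.0 and 41.5 CPM to 112 and 107 CPM (1.43 ± 0.12, adjusted p = 1.01e-05), and the receptors IGF1R (1.15 ± 0.11) and PDGFRB (0.89 ± 0.15) and the ligand FGF2 (0.93 ± 0.11) rose. Of 32 Wnt genes 4 rose and 5 fell, 3 of them without control library 1: the ligands WNT11 (1.68 ± 0.19), WNT5B (0.88 ± 0.12) and WNT5A (0.64 ± 0.10) rose, and the secreted antagonist SFRP1 went from 16.5 and 16.6 CPM to 7.66 and 6.78 CPM (-1.19 ± 0.18, adjusted p = 0.000774). The Notch ligand JAG1 (0.90 ± 0.12) and the Notch target HES1 (0.90 ± 0.12) rose, and the Notch list held 3 rises and no fall among 15. The other rise, MAML2, lost its call without any 1 of the 4 HSF2oe libraries. It was also lost in edgeR under library totals (adjusted p = 0.234) and without a filter on low counts (0.0563). Of 31 guidance genes, the semaphorins, ephrins and their receptors, 4 rose and 8 fell. The plexin PLXND1 went from 95.9 and 105 CPM to 207 and 214 CPM (1.06 ± 0.10, adjusted p = 2.85e-05) and the ephrin receptor EPHB2 rose by 0.90 ± 0.11, whereas the ephrins EFNB1 (-1.06 ± 0.15) and EFNA5 (-1.34 ± 0.18) and the semaphorin SEMA3B (-0.91 ± 0.14) fell. Without control library 1, control library 2, TGF-β1 library 1 or TGF-β1 library 2, the falls in the guidance list numbered 4, 7, 9 and 5. NQO1, a quinone reductase among 18 tested NRF2 targets and metallothioneins, went from 403 and 389 CPM to 255 and 226 CPM (-0.72 ± 0.12, adjusted p = 0.00232), and 3 genes of that list fell and 1 rose. Without control library 1 or TGF-β1 library 2 that list held 1 fall, and without any 1 of the 4 HSF2oe libraries no rise.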

How the data were processed

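RNA-seq of 8 HS578T libraries was used, and gene changes were computed for the 4 HSF2oe libraries. The deposited counts per gene were made by the authors from paired reads with featureCounts 2.0.1 on GENCODE 38, with no strand option, per the file headers. STAR 2.7.9a, Subread 2.0.1, edgeR 3.34.1 and GRCh38 are named in the submitters' processing notes. Reads of overlapping genes are therefore uncertain, and the share of exonic bases that a gene shares with others is given where it is high. The deposited log2 CPM of 13169 genes, made by the authors, served as an alternative only.

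Library totals were 23232467 to 32934381 in HSF2oe cells. Counts were tested with edgeR 4.0.16 (R 4.3.3): filterByExpr, TMM factors, glmQLFit over the 4 groups of 8 libraries with 4 residual degrees of freedom, and glmQLFTest, two-sided, with Benjamini-Hochberg adjustment over 16008 genes at 0.05. TMM factors were 1.109 to 1.113 in the HSF2oe controls and 0.9762 to 1.01 with TGF-β1. CPM are TMM-scaled. The common biological coefficient of variation was 9.908%. The code was tested on simulated data. Replicates of a group differed by more than counting noise.

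Named are a fixed set of genes, the 15 largest rises and 15 largest falls above a mean of 1 log2 CPM with groups apart, and per list up to 5 members with the smallest p and up to 3 called against the majority. Among these, genes whose call held in the alternatives were preferred after their values were seen. The members, lists and tests were chosen with earlier results of these data known. Promoters are RefSeq's, in GRCh38.p14. Alternatives covered scaling, filters, thinning, other tools, a replicate block and left-out libraries. Some genes that the rule selects are not reported here.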

Additional observations from a re-analysis of the deposited data

How the results depend on the processing

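Of 285 named genes 208 were called, 128 of them under every alternative that tested them, and 80 lost the call at least once. None reversed while called, and 20 uncalled sign changes occurred. The 1323 calls (712 higher, 611 lower) became 2045 (452, 1593) under library totals. The other scaling, filters, thinning, the fit to 4 libraries, DESeq2 1.42.0 and limma-trend 3.58.1 gave counts within 1.5 times, from 1091 to 1707. Without 1 library the count lay between 673 and 1334, the rises between 387 and 708, the falls between 278 and 632, and the differences from Mock cells at 0.

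Same-numbered libraries had correlated deviations of 0.0498 to 0.1628, not all over 0.1, so the numbers were not taken to pair the samples. The correlation was above 0 for every pair of groups and largest, at 0.1628, between the HSF2oe controls and the HSF2oe TGF-β1 libraries. The main fit leaves any such pairing out of account, and its calls and statements of overlap are to be read with this limit. With a replicate block the fit to 8 libraries called 2366 genes (1248, 1118) and the fit to the 4 HSF2oe libraries 3618 (1974, 1644). Genes not called in the report were then called, among them HSF2 (-0.30, adjusted p = 0.0424, and -0.29, 0.000301), CCND1 (0.00805) and MYC (0.00428). The difference from Mock cells was called for 0 genes, and for 83 without a filter on low counts, 78 with the replicate block and 24 with DESeq2. The cause was not tested. With 2 libraries a group a lone library was assumed to vary like the other groups. The libraries of 17427645 to 34336107 counts limit what low genes such as CDH1 can show.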
